A study of Mus musculus with 217 samples.

Results

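Chondrocytes of the mouse tibial growth plate were divided by Mki67, the gene of the proliferation antigen Ki-67, and the cell cycle, matrix and zone genes of both groups were compared. The members were chosen by their measured values of 2 genes, aggrecan (Acan) for chondrocytes and Mki67 for the groups. The 217 deposited columns held 29 repeats of other columns and 1 mixed column, and 11 of the remaining distinct profiles had an Acan value below 5 on the deposited log2 scale. All other profiles were taken as chondrocytes. Of these, 15 were Mki67-positive, with a Mki67 value of at least 1, and the rest were Mki67-negative, with a value below 1. The share of Mki67-positive profiles was 8.52% (exact Clopper-Pearson 95% interval 4.85 to 13.7%, counting error only).

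The study profiled single cells of the dissected tibial growth plate at postnatal day 7, from wild type mice of the C57/BL strain, with SMARTer cDNA made from polyA RNA and Nextera XT libraries. All cells carried the same genotype, age and tissue label, and the labels name no treatment. No animal was named, so the 217 cells were treated as 1 sample, and no test, p-value or standard error over cells was computed. The SDs below are over profiles and describe how cells differed within that sample. Depth per cell is unknown, since the values were scaled before deposit.

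The deposited table holds 9739 genes, each above 0 in at least 10 columns, and 62.3% of its values are exactly 0. A 0 does not tell an unexpressed gene from one that was not captured. Within the table, 52 columns formed 23 sets of near-identical columns, each set linked by a correlation of 0.964 or higher over all genes, and each set was averaged to 1 profile. One further column that resembled several others was left out. The 23 sets held no columns on different sides of the Mki67 threshold. Acan was 6.67 or higher in every chondrocyte profile and 2.91 or lower in the 11 others. Of those 11 profiles with low Acan, 3 were Mki67-positive, a share of 27.3% (6.02 to 61%).

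The Mki67 protein coats the surface of mitotic chromosomes, and its mRNA is in wide use as a mark of cycling cells. Top2a encodes the DNA topoisomerase that untangles sister chromatids, and Cdk1 encodes the kinase that drives entry into mitosis. In the growth plate, round resting chondrocytes give rise to columns of flat dividing chondrocytes, which leave the cell cycle, express Indian hedgehog (Ihh) as prehypertrophic cells, and then enlarge and secrete collagen X (Col10a1). Transcription of many mitotic genes is held down outside G2 and mitosis by the DREAM complex at a promoter element called the CHR, and is aided by the factor NF-Y at CCAAT boxes.

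The promoters of Mki67, Top2a and Cdk1 are shown because these genes define the groups and because the mitotic lists below were searched for the same letters. They are RefSeq sequences of build GRCm38.p6, the 250 bases before each annotated start, printed on the strand of the gene. Capitals mark the CHR letters TTTGAA or TTCGAA and the letters CCAAT on either strand, so that TTCAAA and ATTGG are the same motifs read from the other strand.
Mki67, chr7:135716380-135716629, minus strand: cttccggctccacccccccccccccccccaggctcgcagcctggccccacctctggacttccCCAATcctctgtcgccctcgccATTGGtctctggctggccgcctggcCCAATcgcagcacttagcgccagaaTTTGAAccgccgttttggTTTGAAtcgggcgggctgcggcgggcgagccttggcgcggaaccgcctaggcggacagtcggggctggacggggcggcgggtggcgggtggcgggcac
Top2a, chr11:99024190-99024439, minus strand: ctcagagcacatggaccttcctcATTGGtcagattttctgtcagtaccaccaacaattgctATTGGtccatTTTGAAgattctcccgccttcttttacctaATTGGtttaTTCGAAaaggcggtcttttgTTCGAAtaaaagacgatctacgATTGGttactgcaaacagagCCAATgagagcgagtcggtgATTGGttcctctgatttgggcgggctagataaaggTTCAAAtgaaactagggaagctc
Cdk1, chr10:69352913-69353162, minus strand: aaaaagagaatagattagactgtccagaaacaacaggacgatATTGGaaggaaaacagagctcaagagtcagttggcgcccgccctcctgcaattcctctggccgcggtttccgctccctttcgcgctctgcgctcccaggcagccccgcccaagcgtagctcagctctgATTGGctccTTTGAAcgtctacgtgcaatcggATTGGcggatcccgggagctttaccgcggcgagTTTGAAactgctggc
The Mki67 promoter held TTTGAA at 2 places, the nearer one 98 to 93 bases before the start, and CCAAT at 3 places. The Top2a promoter held TTTGAA at 2 places, TTCGAA at 2 and CCAAT at 6, while the Cdk1 promoter held TTTGAA at 2 places and CCAAT at 3. A match of letters is not evidence of a bound site.

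Of the 64 measured genes in the mitotic lists, 54 had a promoter in the RefSeq table, with 58 promoters in all. Of these 58 promoters, 25 held TTTGAA (43.1%), 3 held TTCGAA (5.17%), 38 held CCAAT (65.5%) and 21 held CCAAT together with either CHR form (36.2%). Among all 32851 promoters of the same length, TTTGAA was in 16%, TTCGAA in 1.34%, CCAAT in 33.9% and the combination in 6.02%. Among the 8903 promoters of genes in the deposited table the shares were 10.1%, 1.92%, 35.5% and 4.45% in the same order. The 26 promoters of S phase genes held TTTGAA in 1 case (3.85%) and CCAAT in 20 (76.9%). The 18 promoters of cartilage matrix genes held TTTGAA in 3 cases (16.7%) and CCAAT in 5 (27.8%).

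Mki67 itself, which chose the groups, ranged from 1.58 to 7.31 in the 15 positive profiles, with a median of 3.54. In the negative profiles it was above 0 in 6 and exactly 0 in all others. The lowest positive profile, just inside the threshold, had 1.58 and the highest negative profile, just outside it, had 0.80. Repeat columns existed for 4 of the 15 positive profiles and for 19 negative profiles.

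Most Mki67-positive profiles carried no other sign of division among the defining markers. Top2a and Cdk1 were detected, at a value of at least 1, in the same 3 of 15 positive profiles (20%, 4.33 to 48.1%), called triple-positive below. In the other 12 (80%, 51.9 to 95.7%), called Mki67-only, Top2a and Cdk1 were both 0. No positive profile had 1 of the 2 genes without the other. The label of a dividing group was therefore met on all 3 markers by 3 profiles, or 1.70% of the chondrocytes (0.353 to 4.90%).

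Top2a was 6.09, 7.88 and 7.94 in the triple-positive profiles, taken in descending order of Mki67. Cdk1 was 8.46, 4.67 and 7.64 in the same order. Mki67 was 7.31, 5.71 and 5.61 in these 3, above the highest value of the 12 Mki67-only profiles, 5.02. All 3 triple-positive profiles were averages of repeat columns. The columns of each differed by at most 0.26 in Mki67, 0.16 in Top2a and 0.20 in Cdk1.

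Among the Mki67-negative profiles, 16 had Top2a or Cdk1 (9.94%, 5.79 to 15.6%). Of these, 7 had Top2a alone, 8 had Cdk1 alone and 1 had both. All Mki67-negative profiles but these 16 had each of the 3 genes below 1, and are called marker-free below. Some of them had values above 0, up to 0.80 for Mki67 and 0.96 for Top2a. The triple-positive and the Mki67-only profiles were each compared with the marker-free profiles, so that these comparisons share them.

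**Figure D1:**
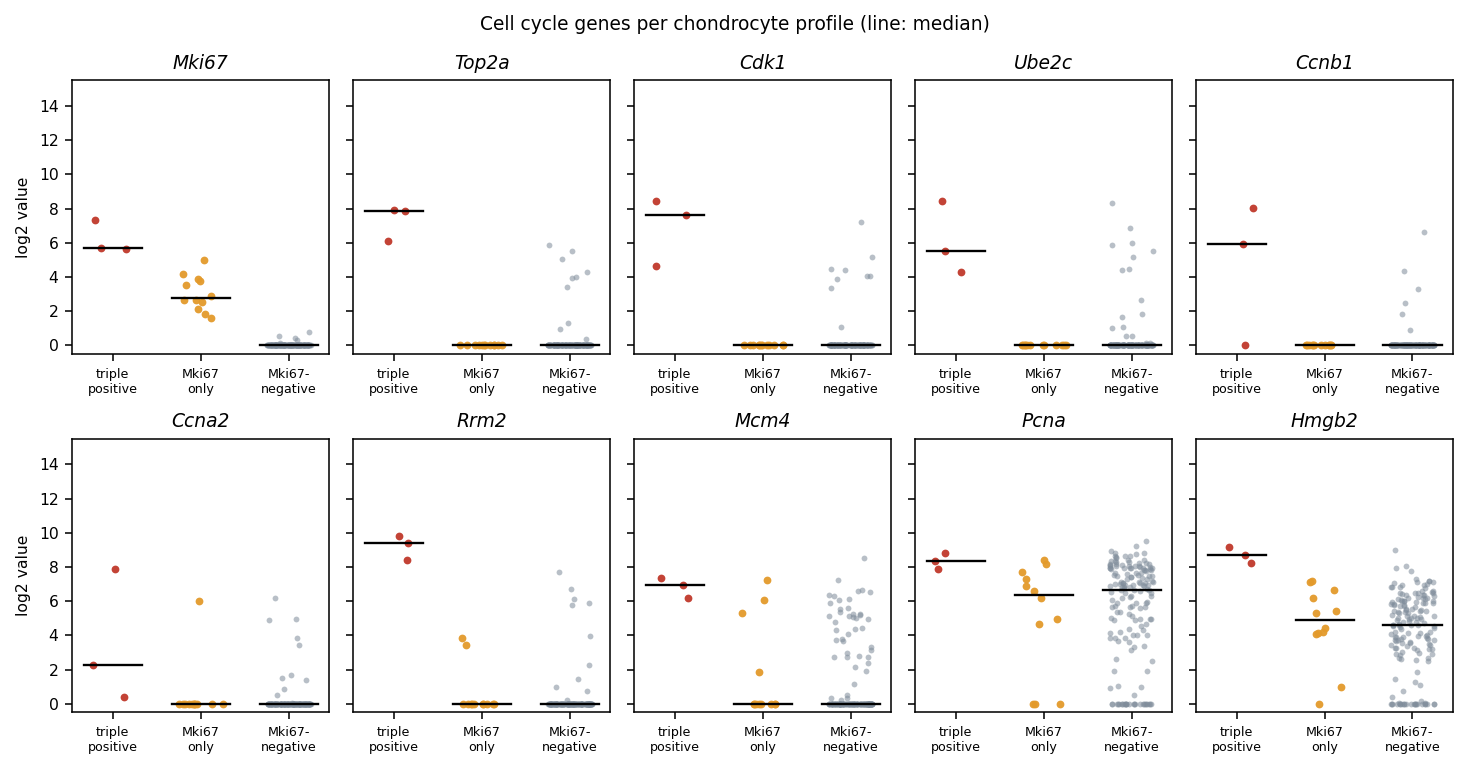
Log2 value per profile of cell cycle genes in triple-positive, Mki67-only and Mki67-negative chondrocytes, with points for profiles and lines for medians. The 3 triple-positive profiles had Rrm2 of 8.41 to 9.80, while the highest Mki67-only profile had 3.82 and the highest negative profile 7.68.

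Many mitotic genes were detected in the 3 triple-positive profiles, while the 12 Mki67-only profiles had the same median number as the negative ones. Of the 64 mitotic genes measured, Top2a and Cdk1 among them, the triple-positive profiles had 42, 49 and 52 at a value of at least 1. The Mki67-only profiles had 8 to 15 with a median of 11, and the Mki67-negative profiles had 4 to 34 with a median of 11. No negative profile reached 42. Of the 33 S phase genes measured, the triple-positive profiles had 20, 22 and 29, the Mki67-only profiles 1 to 13 with a median of 7.5, and the negative profiles 0 to 15 with a median of 6.

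The number of genes detected per profile moved with the groups to a small extent. It had a median of 3592 in Mki67-positive profiles (2837 to 4575) and of 3424 in Mki67-negative profiles (1326 to 4994). In the triple-positive profiles it was 3554 to 3810, within the range of the negative ones. Its part in the differences below was not tested beyond the settings with genes detected held alike, given in the closing section.

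**Figure D2:**
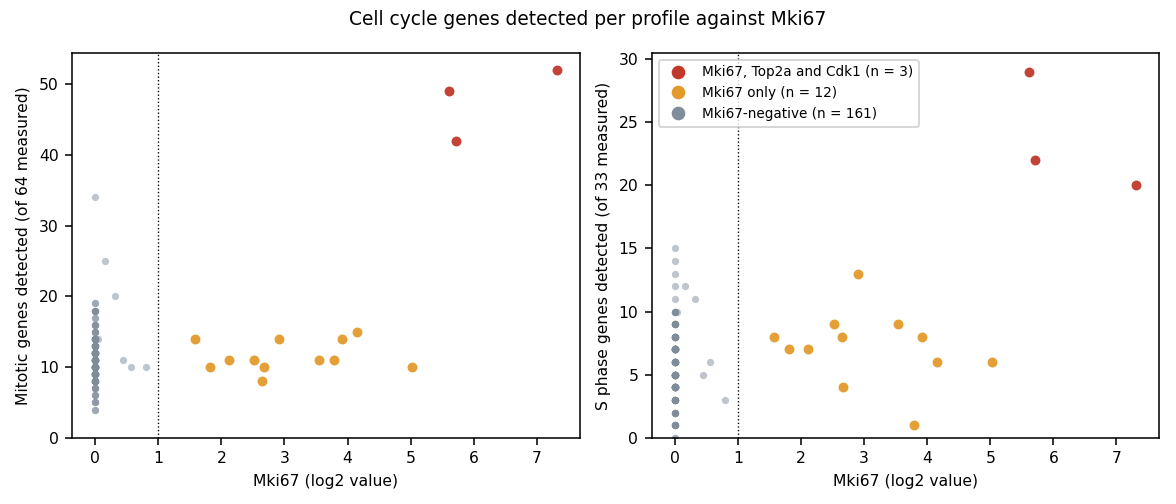
Number of the 64 mitotic genes and number of the 33 S phase genes detected in each profile, each against the Mki67 log2 value, with points for the 3 groups. The 3 triple-positive profiles stand at 42 to 52 mitotic and 20 to 29 S phase genes. The counts of the Mki67-only profiles lie within the range of the negative ones.

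Across the table, 22 of 9738 genes other than Mki67 had a mean log2 value at least 2 higher in Mki67-positive than in Mki67-negative profiles (0.226%), and none was lower by 2 or more (0%). With no replicate samples, this rule of size stands in for a test. At a difference of 1, 555 genes were higher (5.7%) and 1.07% were lower, the median over all genes was 0.09, and 58.7% of genes had a difference above 0. For the 3 triple-positive profiles against the marker-free ones, 728 of 9736 genes were higher by at least 2 (7.48%) and 290 were lower (2.98%), with a median of -0.12. At a difference of 1, these shares were 20.1% higher and 11.6% lower. For the 12 Mki67-only profiles against the marker-free ones, 27 genes were higher by at least 2 (0.277%) and 3 were lower (0.0308%), with a median of 0.08. At a difference of 1, the shares were 6.93% higher and 1.55% lower.

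Kinases and cyclins of G2 and mitosis were represented by 8 measured genes. All 8 had a mean above that of the negative profiles, beside 58.7% of all genes. Of the 8, 2 were higher by at least 1, beside 5.7% of all genes, Cdk1 by 1.15 and Pbk by 1.62, with a list median of 0.60. Without the profile of highest Mki67 the difference of Cdk1 was 0.65, and Pbk was the 1 gene of the list that stayed higher by at least 1 whichever positive profile was left out. Pbk, a mitotic kinase, had 8.29, 8.15 and 8.98 in the triple-positive profiles, 0 in all 12 Mki67-only profiles, and was detected in 2 marker-free profiles. Leaving out Cdk1, which chose them, the triple-positive median of the list was 2.12, while the Mki67-only median was -0.09. In the triple-positive profiles 4 of these 7 genes were higher by at least 2, beside 7.48% of all genes.

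The cyclins differed among the 3 triple-positive profiles. Ccnb1, the cyclin that partners Cdk1 in mitosis, was 8.02 in the profile of highest Mki67, 0 in the next and 5.95 in the third. Ccna2, the cyclin of S phase and G2, was 0.42, 7.86 and 2.29 in the same order. Cdc20, which activates the anaphase-promoting complex (APC/C), was 7.35 in the first profile and 0 in the other 2, and Ccnb2 was likewise 3.32 in the first and 0 in the others. One profile thus held high Ccnb1 and Cdc20 and some Ccnb2, with little Ccna2. Another held high Ccna2 with none of those 3, and the last lay between them for Ccnb1. Ccna2 was also 6.02 in a Mki67-only profile, and Cdc20 was 4.70 in another. All other Mki67-only profiles lacked both genes.

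The spindle, kinetochore and cytokinesis list named 50 genes, of which 28 were measured. All 28 had means above those of the negative profiles, beside 58.7% of all genes. Of the 28, 6 were higher by at least 1, beside 5.7% of all genes, with a median of 0.67. Without the profile of highest Mki67 this median was 0.39, and 2 of the 6 genes stayed higher by at least 1 whichever positive profile was left out. In the triple-positive profiles 24 of the 28 were higher by at least 2, beside 7.48% of all genes, with a median of 3.52. In the Mki67-only profiles the median was -0.04. Birc5, the survivin subunit of the chromosomal passenger complex, was 5.55, 4.61 and 5.30 in the triple-positive profiles, 0 in all Mki67-only profiles and undetected in the marker-free ones. Tacc3, which stabilises spindle microtubules, averaged 7.28 in triple-positive profiles, 1.02 in Mki67-only profiles and 0.78 in the marker-free ones. Kpna2, an importin that also carries spindle factors, averaged 6.08 ± 2.92 in Mki67-positive and 4.26 ± 3.20 in Mki67-negative profiles (SD over profiles), a difference of 1.82.

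The chromosome condensation and chromatin list had 18 measured genes. Of these, 4 were higher by at least 1 in Mki67-positive profiles, beside 5.7% of all genes, with a median of 0.43. Without the profile with a Mki67 of 5.71 the median was 0.23, and 2 of the 4 genes stayed higher by at least 1 whichever profile was left out. Hells, a chromatin remodeller, averaged 1.99 ± 2.77 in positive and 0.24 ± 1.12 in negative profiles. Hmgb2, a DNA-bending chromatin protein, was 8.25, 9.17 and 8.68 in the triple-positive profiles and at most 7.17 in the Mki67-only ones, and its range in negative profiles ran to 9.01. Without Top2a the triple-positive median was 2.63 and the Mki67-only median was -0.04. Of these 17 genes, 11 were higher by at least 2 in the triple-positive profiles, beside 7.48% of all genes.

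The APC/C and mitotic exit list had 10 measured genes, with a median of 0.94 in Mki67-positive profiles. Of the 10, 5 were higher by at least 1, beside 5.7% of all genes, and 2 of these whichever positive profile was left out. Ube2c, the ubiquitin-conjugating enzyme of the complex, was 8.46, 4.27 and 5.50 in the triple-positive profiles and 0 in all 12 Mki67-only profiles, and its mean was 0.32 in the marker-free ones. Fbxo5, the inhibitor Emi1, averaged 5.97 in the triple-positive profiles, 0 in the Mki67-only profiles and 0.12 in the marker-free ones. Cks2, a small subunit that binds Cdk1, averaged 3.41 ± 3.17 in Mki67-positive and 1.89 ± 2.68 in Mki67-negative profiles. The list median was 2.37 in the triple-positive profiles and 0.23 in the Mki67-only profiles. Cdkn3, a phosphatase that acts on Cdk kinases, was among the members with a mean higher in the Mki67-only profiles too, by 1.26, with 3 of 12 of them detecting it, at 5.33 to 6.95.

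S phase and replication licensing genes gave the longest list, with 33 measured. Of these, 10 were higher by at least 1 in Mki67-positive profiles, beside 5.7% of all genes, with a median of 0.55. None was lower by 1, beside 1.07% of all genes. Without the profile with a Mki67 of 5.61 the median was 0.28, and 7 of the 10 genes stayed higher by at least 1 whichever profile was left out. In the triple-positive profiles 23 of 33 were higher by at least 2, beside 7.48% of all genes. Their median was 2.94, while the Mki67-only median was 0.04.

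Rrm2, a subunit of ribonucleotide reductase, which makes the building blocks of DNA, was 8.41, 9.41 and 9.80 in the triple-positive profiles. Its mean was 9.21 in those 3 and 0.24 in the marker-free ones. It averaged 2.33 ± 3.79 in Mki67-positive and 0.26 ± 1.18 in Mki67-negative profiles, a difference of 2.07. Rrm1, the other subunit, averaged 6.92 in the triple-positive profiles, 0.25 in the Mki67-only profiles and 0.54 in the marker-free ones. Mcm4, part of the replicative helicase, was 6.98, 6.17 and 7.37 in the triple-positive profiles, but 7.23 in 1 Mki67-only profile and up to 8.55 among the negative ones. Mcm5, another helicase subunit, was 2.02, 4.40 and 8.52, and Mcm3 was 6.13, 4.83 and 8.23 in the triple-positive profiles. The third triple-positive profile had the highest values of both. Pcna, the sliding clamp of DNA polymerase, was 8.33, 7.86 and 8.83 in the triple-positive profiles, and had a median of 6.38 in Mki67-only and 6.64 in Mki67-negative profiles, so that it was present at substantial levels in cells of all groups. Gmnn, the licensing inhibitor geminin, averaged 5.49 in the triple-positive profiles, 0.78 in the Mki67-only profiles and 0.31 in the marker-free ones.

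**Figure D3:**
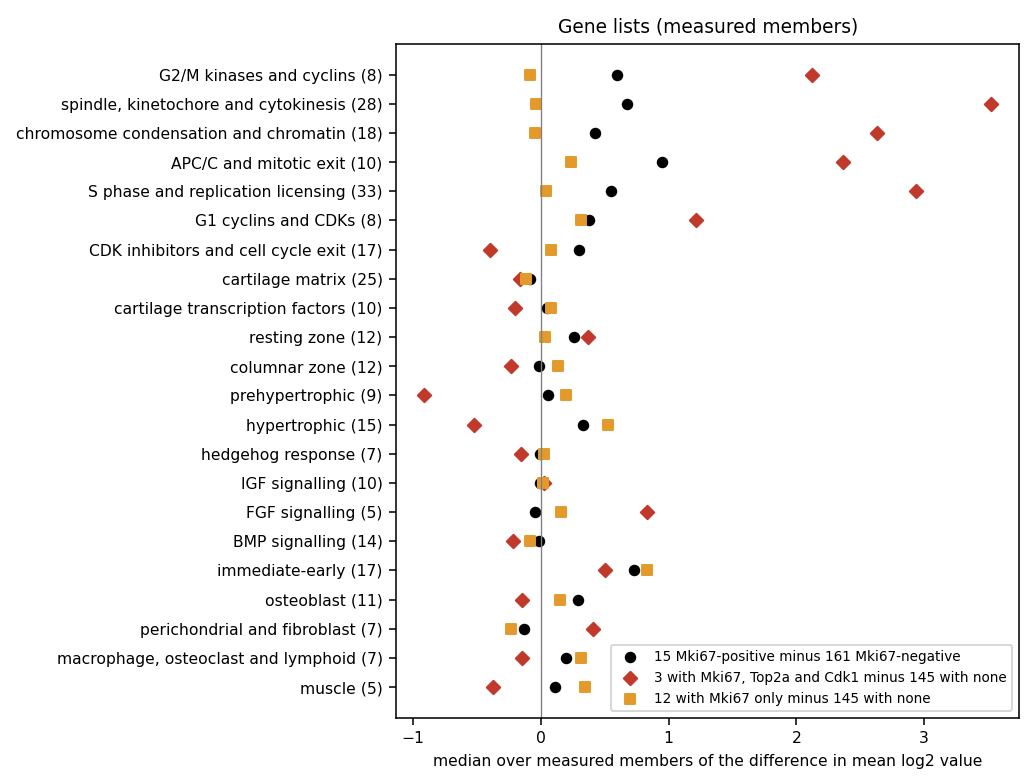
Median over the measured members of each gene list of the difference in mean log2 value, with 1 mark per comparison and the number of members in parentheses (diamonds, triple-positive minus marker-free; squares, Mki67-only minus marker-free; circles, Mki67-positive minus Mki67-negative). The S phase median was 2.94 for triple-positive and 0.04 for Mki67-only profiles, and that of the cartilage matrix list was -0.17 and -0.12.

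Cyclins and kinases of G1 act before the decision to replicate. Of 8 measured, 2 were higher by at least 1 in Mki67-positive profiles, beside 5.7% of all genes, with a median of 0.38. This median ran from 0.24 without the profile with a Mki67 of 5.61 to 0.61 without the one with 2.65. The median was 1.21 in the triple-positive and 0.31 in the Mki67-only profiles. E2f5, an E2F factor, averaged 1.83 ± 2.51 in Mki67-positive and 0.44 ± 1.29 in Mki67-negative profiles, and Ccnd2, a D-type cyclin, 3.82 ± 2.72 and 2.74 ± 2.31. Ccnd1, the D-type cyclin known for its role in proliferating chondrocytes, had 0, 3.87 and 4.65 in the triple-positive profiles and a median of 0.96 in Mki67-only and 2.48 in negative profiles. The triple-positive profile with the highest Mki67 and Ccnb1 was the one without Ccnd1.

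Of 17 measured CDK inhibitors and genes of cell cycle exit, 1 was higher by at least 1 in Mki67-positive profiles, beside 5.7% of all genes. This was Rbl1, the retinoblastoma relative p107, which averaged 1.75 ± 2.63 in positive and 0.50 ± 1.43 in negative profiles. In the triple-positive profiles 6 of the 17 were higher and 4 were lower by at least 1, beside 20.1% and 11.6% of all genes. The list median was 0.30 in Mki67-positive, -0.40 in triple-positive and 0.08 in Mki67-only profiles. The first ran from 0.06 without the positive profile with a Mki67 of 5.71 to 0.48 without the one with 2.67, and 5 of the 15 profiles each moved it by more than 1.5 times when left out. Cdkn1a, the inhibitor p21, was detected in 15 of 15 positive and 95.7% of negative profiles, at 4.42 ± 1.01 and 3.79 ± 1.31. It was 3.44, 3.47 and 3.33 in the triple-positive profiles, within the range of the negative ones. Cdkn1c, the inhibitor p57 of postmitotic chondrocytes, was undetected in the 3 triple-positive profiles, but was detected in only 20.5% of negative profiles. Its mean was 0.51 in all Mki67-positive and 0.49 in Mki67-negative profiles. Gadd45g, a growth arrest gene of hypertrophic cartilage, averaged 2.91 in Mki67-positive and 2.45 in negative profiles. Trp53, the tumour suppressor p53, averaged 4.05 in the triple-positive profiles, 0.96 in Mki67-only profiles and 1.26 in the marker-free ones.

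Cartilage matrix genes had close means in Mki67-positive and Mki67-negative profiles. Of 25 measured matrix genes none differed by 1 in either direction, beside 5.7% of all genes higher and 1.07% lower. The median was -0.09. Acan, the gene that chose the chondrocytes, was 9.12 ± 0.70 in positive and 9.13 ± 0.75 in negative profiles. Col9a1, a chain of the collagen that decorates cartilage fibrils, was 10.04 ± 0.39 and 10.27 ± 0.58 in positive and negative profiles, and Col11a1, a chain of the fibril core, 10.83 ± 0.45 and 11.23 ± 0.54. Matn3, an adaptor protein, was 9.89 in positive and 10.34 in negative profiles, and Comp, a pentameric matrix protein, 9.78 and 9.51. Lect1, the antiangiogenic chondromodulin, was 13.16 in positive and 13.29 in negative profiles. The transcription factor Sox9, which drives these genes, was 8.37 in positive and 8.67 in negative profiles. Col2a1, the major fibril collagen of cartilage, had low values throughout and was detected in 7 of 15 positive and 18.6% of negative profiles, at means of 1.09 and 0.43.

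In the triple-positive profiles 3 of the 25 matrix genes were higher and 5 lower by at least 1 than in the marker-free ones, beside 20.1% and 11.6% of all genes. Dcn, the proteoglycan decorin, was higher by 1.96 and Prelp, another proteoglycan of the same family, by 1.13. Acan was 7.68, 8.38 and 8.59 in these 3, with a median of 9.37 in the Mki67-only and 9.18 in the negative profiles. Hapln1, the link protein that ties aggrecan to hyaluronan, averaged 10.31 in the triple-positive profiles, 11.64 in the Mki67-only profiles and 11.76 in the marker-free ones. Chad, the collagen-binding protein chondroadherin, averaged 6.45, 8.93 and 8.33 in these groups in the same order. No matrix gene differed by 2 in either direction, beside 7.48% of all genes higher and 2.98% lower. The values of Acan and Hapln1 overlapped those of the negative profiles. The list median was -0.17.

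A few transcription factors of cartilage differed by at least 2 between the triple-positive and the marker-free profiles. Trps1, a repressor that acts in columnar and prehypertrophic chondrocytes, averaged 1.31 in the 3 triple-positive profiles, 5.76 in the Mki67-only profiles and 5.82 in the marker-free ones. Foxa3, a forkhead factor of the hypertrophic programme, was 0 in all 3 and averaged 3.68 in the Mki67-only profiles and 3.14 in the marker-free ones. Sox11, a SOX factor of early skeletal cells, averaged 6.74, 4.19 and 3.95 in the same order. Sox9 averaged 9.39 in the triple-positive and 8.63 in the marker-free profiles. Over the 10 measured factors, 1 was higher and 2 were lower by at least 2 in the triple-positive profiles, beside 7.48% and 2.98% of all genes. The list median was -0.20, beside -0.12 over all genes.

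Zone genes had different values in the triple-positive and the Mki67-only profiles. Col10a1, the marker of hypertrophic chondrocytes, was below 1 in all 3 triple-positive profiles, at 0.34, 0 and 0.62, and detected in 10 of 12 Mki67-only profiles, at 4.48 to 12.14. Over all Mki67-positive profiles its share was 10 of 15 (66.7%, 38.4 to 88.2%), and in Mki67-negative profiles it was 78.9% (71.8 to 84.9%). These intervals overlap. A count of 0 of 3 allows a share of up to 70.8%, and a count of 0 of 12 a share of up to 26.5%.

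Ihh was detected in 0 of 3 triple-positive and 5 of 12 Mki67-only profiles, together 5 of 15 (33.3%, 11.8 to 61.6%), against 34.8% of negative profiles (27.5 to 42.7%). Sfrp5, a secreted WNT antagonist of the resting zone list, was likewise in 0 of 3 and 7 of 12, together 7 of 15 (46.7%), against 36.6% of negative profiles. Spp1, the mineral-binding osteopontin, was in 0 of 3 and 5 of 12, together 5 of 15, against 23.6% of negative profiles. Ibsp, bone sialoprotein of late hypertrophic cells, was detected in 2 of 3 triple-positive profiles, at 1.05 and 3.82, and in 4 of 12 Mki67-only profiles. Its share was 6 of 15 (40%, 16.3 to 67.7%) in Mki67-positive and 19.3% (13.5 to 26.2%) in Mki67-negative profiles.

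Ucma, a secreted protein of upper growth plate cartilage, was detected in all 3 triple-positive profiles, at 3.64, 4.60 and 4.54. It was in 6 of 12 Mki67-only profiles, with 4.16 as the highest value, and in 59.6% of negative profiles, with 7.26 as the highest. Panx3, a channel of prehypertrophic cells, was detected in all groups but was 8.69, 7.39 and 7.69 in the triple-positive profiles. Its medians were 10.80 in Mki67-only and 10.64 in negative profiles, with lowest values of 5.33 and 0, so the groups overlapped.

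**Figure D4:**
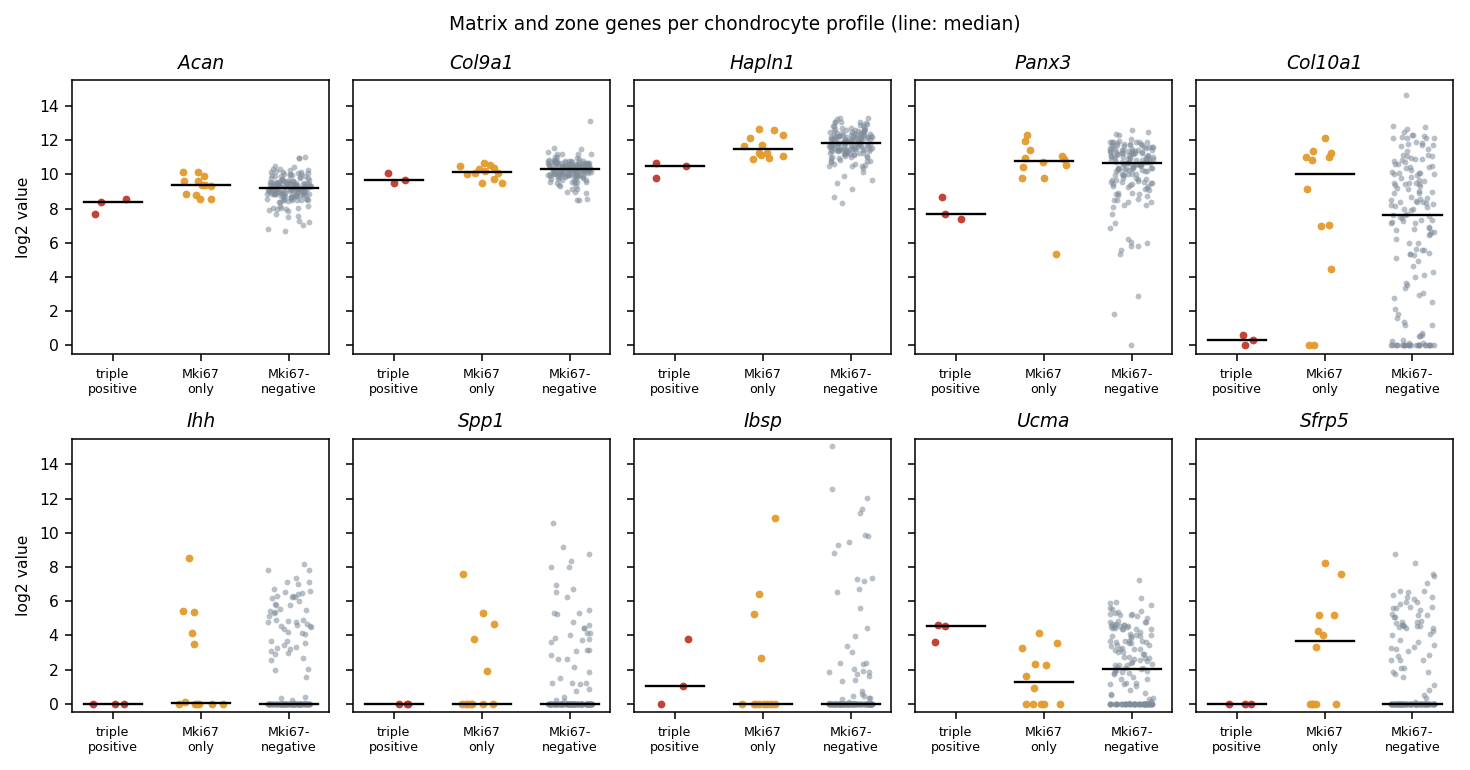
Log2 value per profile of matrix and zone genes in triple-positive, Mki67-only and Mki67-negative chondrocytes, with points for profiles and lines for medians. Col10a1 is at most 0.62 in the triple-positive profiles and reaches 12.14 in the Mki67-only and 14.62 in the negative ones, where its median is 7.60.

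By list, the 12 measured resting zone genes had a median difference of 0.26 in Mki67-positive profiles, with 2 higher by at least 1. This count stands beside 5.7% of all genes, and the median was 0.08 without the positive profile with a Mki67 of 5.71 and 0.13 without the one with 7.31. The 2 genes were Cd200, a surface protein of skeletal stem cells, at 4.66 ± 3.59 in positive and 2.92 ± 3.27 in negative profiles, and the matrix protein Spon1 at 2.23 ± 2.70 and 1.15 ± 2.06. Of the 12, 4 were higher by at least 2 in the triple-positive profiles, beside 7.48% of all genes, namely Spon1, Cytl1, Apoe and Ucma. The ectonucleotidase Nt5e was the 1 gene lower by at least 2, beside 2.98% of all genes. It averaged 2.25 in triple-positive profiles, 7.87 in Mki67-only profiles and 6.23 in the marker-free ones. The 12 columnar zone genes had a median of -0.01 in Mki67-positive and -0.24 in triple-positive profiles. Of these, 1 was higher and 3 were lower by at least 2 in the triple-positive profiles, beside 7.48% and 2.98% of all genes. The higher one was Matn2, at 6.70 in triple-positive profiles and 3.74 in the marker-free ones. The lower ones were Sema3d at 0.32 and 3.41, the WNT antagonist Frzb at 0 and 2.91, and Gdf10 at 2.74 and 5.33.

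The 9 prehypertrophic genes had medians of 0.06 in Mki67-positive, -0.91 in triple-positive and 0.19 in Mki67-only profiles, the first running from -0.30 to 0.19 as single profiles were left out. Of the 9 genes, Panx3 and the surface protein Cd24a were lower by at least 2 in the triple-positive profiles, beside 2.98% of all genes. The 15 hypertrophic genes had medians of 0.33, -0.53 and 0.53 in the same order. The first was 0.09 without the positive profile with a Mki67 of 4.16 and 0.17 without the one with 2.11. Of the 15, 3 were lower by at least 2 in the triple-positive profiles, beside 2.98% of all genes. These were Col10a1, Smpd3, a sphingomyelinase of mineralising cartilage, at 2.91 in triple-positive profiles and 7.16 in the marker-free ones, and the RUNX factor Runx3 at 0.14 and 2.41.

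In Mki67-positive profiles the 7 hedgehog response genes had a median of -0.01, the 14 BMP genes -0.01 and the 5 FGF genes -0.05, and each of these changed sign when single profiles were left out. The hedgehog median was 0.81 over the genes detected in at least 20% of profiles. Triple-positive medians were -0.16 for hedgehog, -0.22 for BMP and 0.83 for FGF genes. Of the 14 BMP genes, 2 were higher and 4 lower by at least 1 in the triple-positive profiles, beside 20.1% and 11.6% of all genes. The ligand Bmp5 was higher by 1.66 and Id1, a target of BMP signalling, by 1.23, while Id2, another target, averaged 1.97 in the triple-positive profiles, 5.38 in the Mki67-only profiles and 5.43 in the marker-free ones, and the inhibitory Smad7 0.23, 2.01 and 2.56. Among FGF genes, the receptor Fgfr3 of the columnar list was detected in 3 of 15 positive and 6.21% of negative profiles, and in none of the triple-positive ones. The feedback inhibitor Spry2 averaged 6.28 ± 2.40 in positive and 6.33 ± 2.52 in negative profiles.

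Immediate-early genes, which are induced within minutes of a stimulus and of tissue dissociation, had higher means in Mki67-positive profiles. Of 17 measured, 16 had a higher mean in Mki67-positive profiles, beside 58.7% of all genes, and 5 were higher by at least 1, beside 5.7%, with a median of 0.73. Of these 5, 3 stayed higher by at least 1 whichever profile was left out. With Top2a in place of Mki67 as the dividing gene the median was -0.020. The 5 genes were Fos at 8.15 ± 2.69 in positive and 6.0 ± 3.27 in negative profiles, Dusp1 at 5.85 ± 2.73 and 4.29 ± 3.21, Klf2 at 2.89 ± 2.43 and 1.42 ± 2.02, Jun at 4.45 ± 1.62 and 3.38 ± 1.81, and Ier2 at 2.69 ± 2.35 and 1.63 ± 2.06. The mean log2 value over the list ranged from 3.61 to 6.64 in positive and from 1.91 to 6.95 in negative profiles, so the groups overlapped. Its median difference was 0.50 in the triple-positive and 0.83 in the Mki67-only profiles. The part of these genes in the other differences was not tested.

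Markers of other cell types overlapped between the groups. Pecam1, the only endothelial gene measured, was detected in 1 of 15 positive and 3 negative profiles, and Csf1r, the receptor that defines macrophages, was undetected in all positive profiles. The mean log2 value over the 7 macrophage, osteoclast and lymphoid genes ranged from 0 to 2.12 in positive and from 0 to 2.73 in negative profiles. That over the 11 osteoblast genes ranged from 0.98 to 3.40 in positive and from 0 to 6.61 in negative profiles. Of the 11, 2 were higher by at least 1, beside 5.7% of all genes. These were Serpinf1 and Col1a2, neither of them whichever profile was left out. In the triple-positive profiles Col3a1, a fibrillar collagen of fibrous tissue, averaged 4.81, against 1.27 in the marker-free ones. Of the 7 measured perichondrial and fibroblast genes, 1 was higher and 0 were lower by at least 1 in the triple-positive profiles. These counts stand beside 20.1% and 11.6% of all genes, and the list median was 0.41. The part of other cells in the differences was not tested.

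The 15 genes of largest positive difference, among genes detected in at least 50% of Mki67-positive profiles, held no member of the cell cycle lists. Plrg1, a splicing factor, averaged 5.28 ± 2.51 in Mki67-positive and 2.54 ± 3.10 in Mki67-negative profiles, a difference of 2.74. It was detected in 13 of 15 positive and 44.7% of negative profiles. Nfkbia, the NF-κB inhibitor that is itself induced by stimulation, averaged 6.19 ± 2.68 and 3.53 ± 3.10, a difference of 2.67. Differences of 2.15 to 2.49 were found for the calpain protease Capn7, the methyl-cycle enzyme Ahcy, the transcription factor Zfp143, the ribosome biogenesis factors Imp3 and Grwd1, the proteasome assembly factor Psmd9, the cysteine-making enzyme Cth, the channel subunit Lrrc8c, the guanine nucleotide enzyme Gmps, the γ-tubulin gene Tubg1, the nucleoporin Nup85, the actin-nucleation subunit Arpc1a and Fos. All 15 overlapped between the groups, each with a lowest value of 0 in both.

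The 15 profiles that chose these genes are the 12 Mki67-only and the 3 triple-positive ones. The choice thus favours a higher mean in either group, though it does not force one in both. Plrg1 was higher by 2.98 in Mki67-only and by 1.49 in triple-positive profiles, and Capn7 by 3.20 in Mki67-only profiles but with a difference of -0.31 in triple-positive ones. Tubg1, which nucleates spindle microtubules, was higher by 3.82 in triple-positive and by 1.84 in Mki67-only profiles. Ahcy was higher by 4.39 and 2.05, and Cth by 4.45 and 1.84, in triple-positive and Mki67-only profiles.

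The 15 genes of largest negative difference fell short of a difference of 2. Gng10, a G protein subunit, averaged 4.16 ± 3.03 in positive and 6.16 ± 2.18 in negative profiles and was detected in 12 of 15 and 93.2%. Cdr2 averaged 1.09 and 2.86, and the methyltransferase gene N6amt2 1.51 and 3.27. The other 12 were Ctdnep1, Pmpca, Art3, Cast, Zfc3h1, Smim4, Hadh, Ech1, Lgr4, Mrps23, Taf11 and Tnfrsf21, with differences of -1.57 to -1.33. A lower mean in triple-positive or Mki67-only profiles is likewise favoured, but not forced, by the choice of these genes. Hadh, a mitochondrial enzyme of fatty acid oxidation, had differences of -3.76 in triple-positive and -0.97 in Mki67-only profiles. Lgr4, a receptor for R-spondins, was higher by 1.49 in triple-positive profiles and lower in Mki67-only profiles, with a difference of -2.13.

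**Figure D5:**
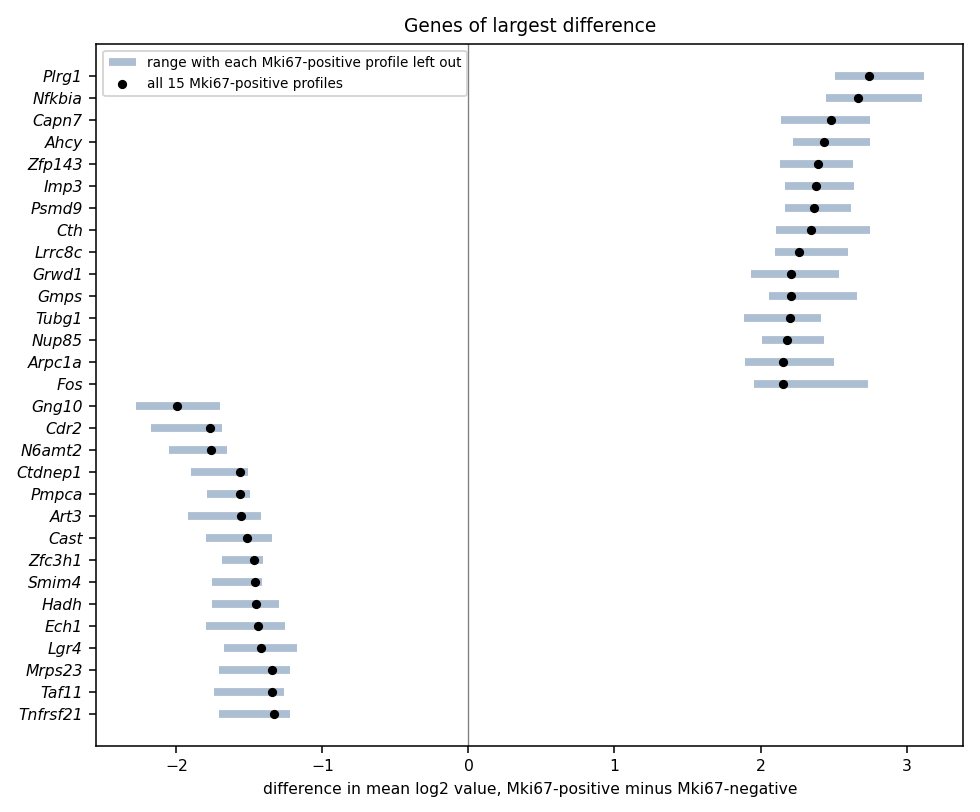
Difference in mean log2 value, Mki67-positive minus Mki67-negative, for the 15 genes of largest positive and the 15 of largest negative difference, with points for all 15 positive profiles and bars for the range when each is left out. Plrg1 stands highest at 2.74 and Gng10 lowest at -2.0.

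Some Mki67-negative profiles held many mitotic genes. The negative profile with the most, 34 of 64, had Mki67 at 0, Top2a at 0.36 and Cdk1 at 0, with Ccna2 at 6.16, Ccnb2 at 5.51 and Ube2c at 5.52. The same profile, an average of 2 columns with 4331 genes detected, had Ibsp at 15.05 and Col10a1 at 6.80. With each of the 3 markers below 1, it was among the marker-free profiles of the comparisons above. The next, with 25 mitotic genes, had Mki67 at 0.16, Top2a at 5.55 and Cdk1 at 3.91, and held Col10a1 at 9.22 and Ihh at 4.40. Both lay below the 42 to 52 of the triple-positive profiles. No doublet caller was run, and whether such profiles held more than 1 cell was not tested.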

How the data were processed

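The labels describe polyA RNA of microdissected growth plate cells, SMARTer cDNA and Nextera XT libraries. TopHat and build mm10 are named in the submitters' processing notes. The quantifier, annotation and filters were not given in the sources used here. Values were deposited by the authors as log2 values with a lowest value of 0. Base 2 and a pseudocount of 1 were inferred from the values, since back-transformed totals had a coefficient of variation of 7.33% over columns. Depth is therefore unknown.

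Columns linked by a correlation above 0.95 were averaged and 1 mixed column was left out, which gave 187 profiles. Of these, 176 were chondrocytes, 15 Mki67-positive and 161 Mki67-negative, and 145 of the 161 were marker-free. Detection meant a value of at least 1. Groups were compared by differences of mean log2 values. Genes were called at 2, and list members at 1. Shares have 95% exact Clopper-Pearson intervals. Named genes were Mki67, Top2a and Cdk1, the 15 largest differences either way among genes detected in at least 50% of the higher group, up to 5 members per list, and matrix and zone markers, and a few members named after their values were seen. The members and lists were chosen with earlier results of these data known. Settings varied were the repeats, thresholds, dividing gene, pseudocount, scaling, filters and genes detected. The code was checked on simulated data, and no difference was tested. NetworkX 3.6.1, SciPy 1.17.1, pandas 2.3.3, NumPy 2.4.6 and Python 3.11.15 were used.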

Additional observations from a re-analysis of the deposited data

How the results depend on the processing

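No paired analysis was possible because the labels give 1 group with no replicate numbers and no result comes from a test. With 15 Mki67-positive profiles, 3 of them triple-positive, each value rests on few cells. The median over all genes lay between -0.12, in the triple-positive comparison, and 0.17, with a pseudocount of 0.1, and was 0.09 as reported. It was -0.005 with genes detected regressed out and 0.003 against the 5 negative profiles nearest in genes detected. The cause of each change below was not tested. A Mki67 minimum of 5 left 4 positive profiles in place of 15.

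The 22 genes higher by at least 2 became 42 with repeat columns apart, 8 with any Mki67 above 0, 454 with a Mki67 minimum of 5, 42 with Top2a as the dividing gene, 728 for triple-positive profiles, 246 with a pseudocount of 0.1, 10 with genes detected regressed out and 14 against the 5 negative profiles nearest in genes detected. Leaving out each positive profile gave 19 to 34, the highest count without the one with a Mki67 of 2.67. The count of genes lower, 0 as reported, was 3 with repeats apart, 1 with the mixed column kept, 1 with no Acan minimum, 160 with a Mki67 minimum of 5, 31 with Top2a, 290 for triple-positive profiles, 28 with the smaller pseudocount, 2 with genes detected regressed out, 6 against the nearest profiles, 1 without the 10% of profiles with fewest genes and 0 to 2 with each profile left out. In the Mki67-only comparison, chosen after seeing the data, it was 3.

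With Mki67 at least 5, list medians became 2.54 for S phase and 2.47 for condensation genes and 2.53 for spindle genes. For triple-positive profiles they were 2.94, 2.63 and 3.52, with 2.37 for APC/C, 2.12 for G2 and mitotic kinases and -0.40 for CDK inhibitors. For Mki67-only profiles the kinase median turned to -0.086 and the spindle median to -0.042. The immediate-early median was -0.020 with Top2a as the dividing gene, the matrix median -0.84 with no Acan minimum, and the hedgehog median 0.81 among the genes detected in at least 20% of profiles. That filter left no gene of the kinase and endothelial lists.

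Differences in share, in percentage points, were -54.1 with Mki67 at least 5 and -80 in triple-positive profiles for Col10a1 (-12.2 as reported). In the same order they were -35.5 and -35.9 for Ihh, -38.4 and -35.2 for Sfrp5, -25 and -22.8 for Spp1, 41.3 and 41.4 for Ucma, and -7.56 and -6.90 for Fgfr3. For Ibsp the first was 55.2. With Top2a as the dividing gene Fgfr3 had -7.88 and Cd200 -6.06. Top2a as the dividing gene also turned Capn7 (-0.090), Cdr2 (0.32), Fos (-0.10), Grwd1 (-0.31), Lgr4 (0.73), Nfkbia (-0.47), Taf11 (0.028), Tnfrsf21 (0.76) and Zfp143 (-0.24). Mki67 at least 5 turned Capn7 (-0.78), Ech1 (0.50) and Lgr4 (0.015), and the triple-positive comparison turned Capn7 (-0.31) and Lgr4 (1.49).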

Other observations

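Among the 11 profiles with low Acan, which belong to no comparison above, 3 were Mki67-positive. Their Mki67 values were 4.35, 6.33 and 3.66. In the same order Top2a was 6.40, 0 and 6.22, and Cdk1 was 0, 3.03 and 5.73. All 3 thus held at least 1 of the other markers of division, while 12 of the 15 Mki67-positive chondrocyte profiles held neither.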
